A study of Homo sapiens with 6 samples.

Results

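Interferon response and antigen presentation were followed through 39 genes, chosen by name from the 22701 gene symbols of an expression table of LX-2 cells, and all 39 were found. LX-2 is a cell line of human hepatic stellate origin that serves to study the cells that lay down collagen in liver scarring. The tested group was 3 libraries of cells given TGF-β and 20 µM ligustilide (LIG), a phthalide of Angelica and Ligusticum roots. It was set against 3 libraries of cells given TGF-β alone. Both groups carried TGF-β at a labelled 5 µg/mL, with no treatment time in the labels. TGF-β is usually given to cultured cells in ng/mL, and whether the labelled unit is right could not be checked here. Cells without TGF-β, or given an interferon, were not analysed here, so the values show how LIG differs on top of TGF-β. Nothing in the labels says that the replicates came from separate cultures, so a p-value here weighs the spread among these libraries, which may be technical.

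Interferons are secreted proteins that put cells into an antiviral state. Type I interferons signal through the receptor chains IFNAR1 and IFNAR2 and the kinases JAK1 and TYK2 to a complex that holds STAT2 and IRF9 and binds a DNA motif called ISRE. Interferon-γ has its own receptor and acts mainly through a motif called GAS. The genes switched on include RNA-binding IFIT proteins, OAS enzymes, GBP GTPases and the MHC class I machinery, which shows peptides to T cells. Many of these genes have a low level in cells with no infection.

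The 39 genes comprise 28 antiviral effectors, the factors STAT2, IRF1, IRF7 and IRF9, the guanylate-binding protein genes GBP1, GBP2 and GBP3, and the class I genes TAP1, B2M, HLA-B and HLA-C. The sequences below show the ISRE core, which these genes are known for, in the 250 bases before the RefSeq start (GRCh38.p14). RefSeq sequences were at hand for 31 of the 39 genes. Capitals mark matches to that core, searched as GAAA, any 2 bases and GAAA, on either strand, and each line runs 5′ to 3′ on the strand of its gene. GBP1, IFIT1, IFIT3 and ISG15 are shown because they passed as lower with LIG, the last 3 in the fit without LIG replicate 3 and TGF-β replicate 2 and not in the fit on all libraries, and B2M as the most abundant gene of the set. OASL also passed in the fit without those libraries, but no RefSeq sequence was at hand for it.
GBP1: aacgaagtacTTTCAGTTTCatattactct
IFIT1: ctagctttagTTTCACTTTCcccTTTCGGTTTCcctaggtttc
IFIT3: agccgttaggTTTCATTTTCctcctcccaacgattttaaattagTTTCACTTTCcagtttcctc
ISG15: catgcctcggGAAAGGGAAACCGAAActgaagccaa
B2M: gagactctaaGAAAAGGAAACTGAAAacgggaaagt
GBP3: ggacatgtttttaaaacaataaatggtctc

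The GBP1 stretch is chr1:89065316-89065345 on the minus strand, with its match 127 bases before the RefSeq start and inside a GBP1 exon of the GENCODE annotation. GBP3 is shown over the same distances from its own start, at chr1:89022974-89023003 on the minus strand. It has no ISRE core there or elsewhere in its 250 bases, and 9 of 30 positions are the same as in GBP1. GBP3 has a match to the GAS motif 15 bases before its start, and GBP1 has none in its 250 bases. On the plus strand, IFIT1 is shown at chr10:89392497-89392539, IFIT3 at chr10:89327831-89327894, ISG15 at chr1:1013374-1013409 and B2M at chr15:44711363-44711398. Of the 31 promoters, 17 (54.8%) held the ISRE core, against 3.07% of 27305 promoters. The GAS motif TTCNNNGAA was in 8 of 31 (25.8%), against 6.78% of all promoters, and in 1 of the 31 a GAS match overlapped an ISRE core. A match describes the letters in this window and not a bound factor. Genes that passed neither on all libraries nor without LIG replicate 3 and TGF-β replicate 2 were of both kinds. IFI6 held 3 ISRE cores and IFITM3 and TAP1 held 2 each, while HLA-B and HLA-C held none. Whether a core goes with a change under LIG was not tested.

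Values are FPKM, fragments scaled to gene length and library total, so levels can be compared between genes. The 6 libraries held 38401783 to 39260090 fragments. Genes with a mean of at least 1 FPKM were tested (10695), on log2(FPKM + 1), LIG minus TGF-β, with limma and Benjamini-Hochberg adjustment over all of them. LIG replicate 3 and TGF-β replicate 2 stood apart: Pearson correlations of levels across genes were 0.9902 to 0.9907 between LIG replicate 3 and the other LIG libraries, against 0.998 between those. Their short genes read high. The median deviation from the group mean over 1124 tested genes of up to 1500 bases was 0.21 (log2) in LIG replicate 3 and 0.14 in TGF-β replicate 2. The same median over 3018 genes above 6000 bases was -0.11 in LIG replicate 3 and -0.06 in TGF-β replicate 2.
Of 11 stellate and myofibroblast markers measured, 9 reached a mean of 1 FPKM, with VIM at 1747 to 2091 FPKM in LIG libraries and 1737 to 1971 FPKM in TGF-β libraries and COL1A1 at 496 to 515 FPKM with LIG and 618 to 691 FPKM with TGF-β alone. Others were low: ACTA2 had 2.75 to 3.23 FPKM with LIG and 2.11 to 3.43 FPKM with TGF-β alone, RGS5 at most 0.335 FPKM and DES at most 0.012 FPKM in any library. COL1A2 varied within a group, with 5.08, 3.28 and 3.24 FPKM with LIG and 0.675, 0.708 and 6.73 FPKM with TGF-β alone. The matrix genes COL3A1 (log2 change -0.96, limma adjusted p = 0.0144) and SPARC (-0.46, limma adjusted p = 0.0435) fell with LIG in the fit used below, and whether they bear on the interferon genes was not tested. Of 8 leukocyte markers measured, CD68 alone reached a mean of 1 FPKM. The summed level of the 8 was 15.0 to 16.5 FPKM in LIG libraries and 13.8 to 15.9 FPKM in TGF-β libraries, and the pan-leukocyte gene PTPRC stayed at or below 0.016 FPKM.

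The interferon-induced genes were expressed over a wide range without added interferon. The class I light chain gene B2M was highest at a mean of 568 FPKM over the 6 libraries, followed by HLA-B at 343 FPKM, IFITM3 at 185 FPKM and HLA-C at 129 FPKM. ISG15 averaged 74.4 FPKM and GBP1 58.3 FPKM. At the low end MX1, IFI44L, USP18 and OAS1 had means under 1 FPKM and were not tested. Their values overlapped between the groups: MX1 had 0.089 to 0.188 FPKM with LIG and 0.097 to 0.178 FPKM with TGF-β alone, on 20 to 43 fragments per library. IFI44L ran from 0.518 to 0.648 FPKM with LIG and from 0.405 to 0.610 FPKM without it. USP18 ran from 0.671 to 0.866 FPKM with LIG and from 0.797 to 1.17 FPKM without, and OAS1 from 0.690 to 0.972 FPKM with LIG and from 0.957 to 1.06 FPKM without.

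**Figure D1:**
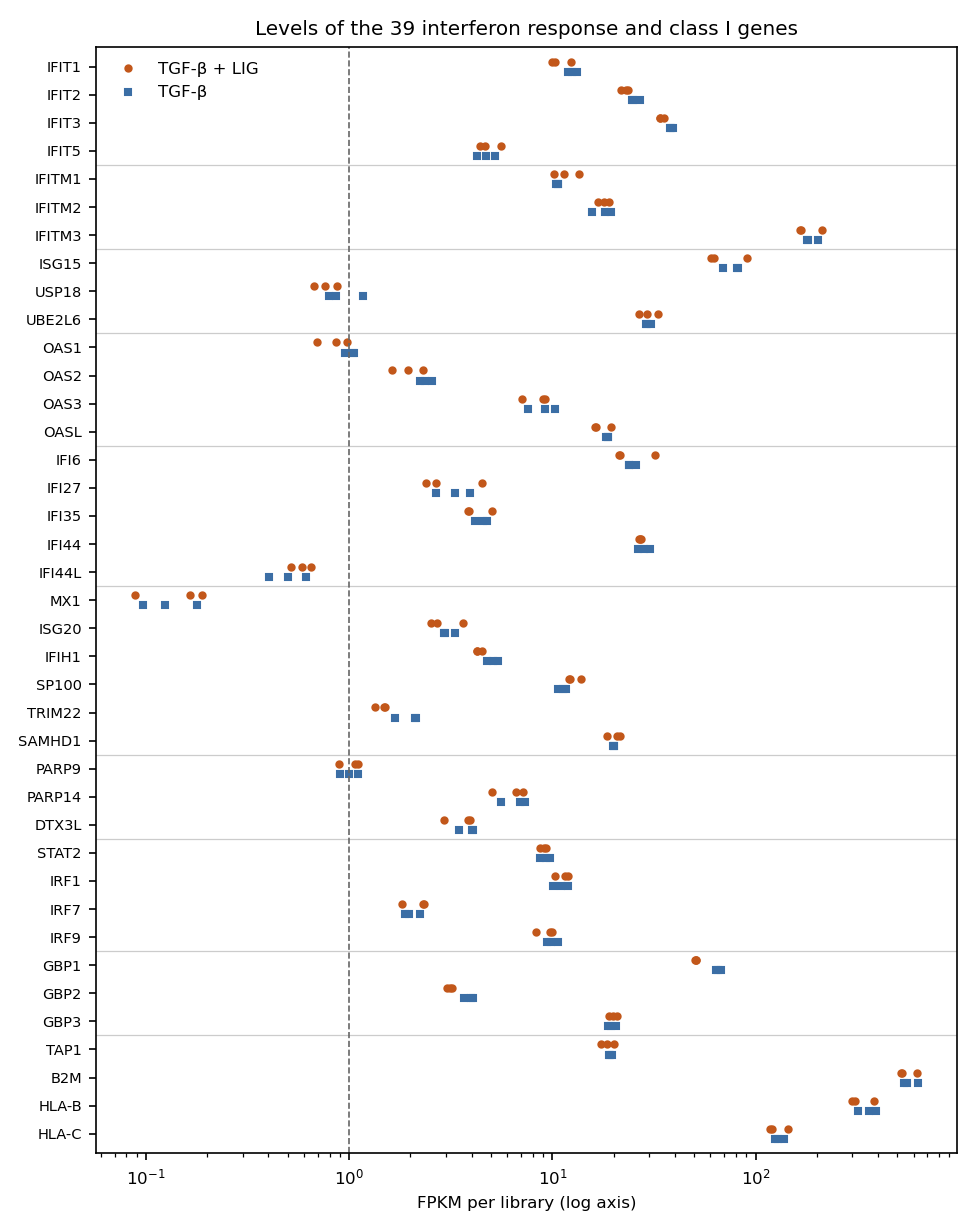
FPKM (log axis) of each of the 39 genes in the 3 LIG libraries (circles, upper) and the 3 TGF-β libraries (squares, lower), grouped by role with grey lines between groups. The dashed line is the filter of 1 FPKM. For most genes the groups overlap, while GBP1, GBP2, IFIT2, IFIT3, IFIH1 and TRIM22 lie lower with LIG and SP100 lies higher.

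Of the 35 genes tested, GBP1 fell with LIG, none rose and 34 did not pass. GBP1 is 2.86% of them, where 0.692% of all tested genes were called in either direction, 0.505% as lower and 0.187% as higher. With library quality weights, 1117 of all genes were called higher and 774 lower, and of the 35 genes 0 higher and 10 lower. The 10 were GBP1, GBP2, HLA-B, IFI27, IFIT1, IFIT3, ISG15, OAS2, OASL and TRIM22. At an unadjusted p of 0.05, 6 of the 35 passed, against 8.41% of all genes. A change below 0 was seen in 26 of 35 (74.3%), against 4187 of 10695 genes (39.1%). The median log2 change was -0.06 over the 35 and 0.03 over all tested genes. In 6 genes all LIG libraries were lower than all TGF-β libraries (6.73% of all genes) and in 1 all were higher (9.07% of all genes). The changes were small on the scale of log2(FPKM + 1), which understates changes of low genes. On it, each of the 35 single-gene 95% intervals lay inside a 1.5-fold change either way, as did 10413 of the 10695. TRIM22, at a mean of 1.71 FPKM, had a log2 change of -0.28 on this scale. Its ratio of mean FPKM, LIG over TGF-β, was 0.733. In bulk RNA, fewer cells expressing a gene and less RNA per cell cannot be told apart.

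**Figure D2:**
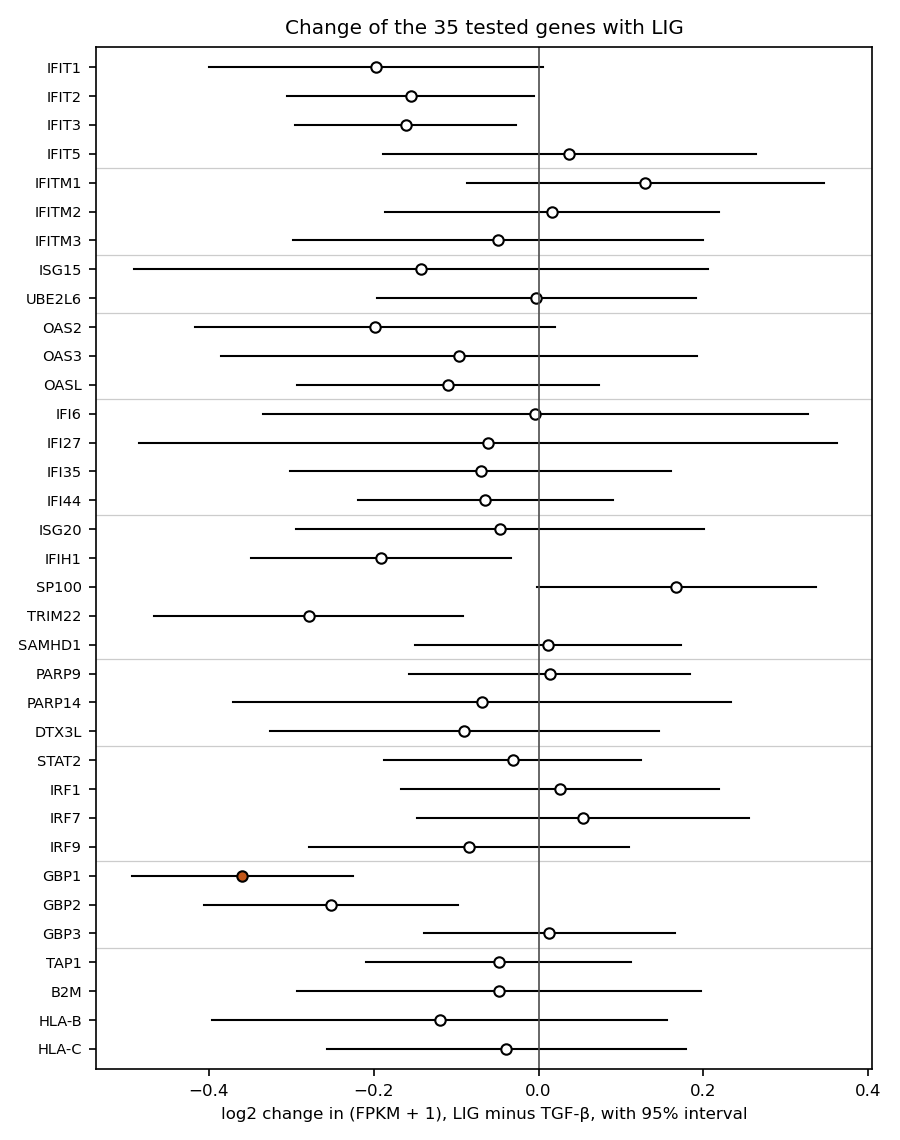
Log2 change in (FPKM + 1), LIG minus TGF-β, of the 35 tested genes, with the 95% interval of each gene from limma; the filled point passed at an adjusted p of 0.05. GBP1 is the single filled point, at -0.36, and TRIM22 and GBP2 follow at -0.28 and -0.25. The ratios of mean FPKM, LIG over TGF-β, were 0.776 for GBP1, 0.733 for TRIM22 and 0.798 for GBP2.

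The GBP genes encode interferon-induced GTPases that coat intracellular pathogens and help to break their vacuoles. GBP1, GBP2 and GBP3 lie on the minus strand of chromosome 1 (GRCh38, GENCODE 29), GBP1 from 89052319 to 89065360, GBP2 from 89106132 to 89150456 and GBP3 from 89006666 to 89022894. GBP1 had 51.0, 51.2 and 50.5 FPKM in LIG replicates 1 to 3, against 65.3, 67.6 and 63.9 FPKM in TGF-β replicates 1 to 3. The LIG libraries lay together and well below the lowest TGF-β library. The mean was 50.9 ± 0.38 FPKM with LIG and 65.6 ± 1.89 FPKM with TGF-β alone (SD, n = 3 each). The log2 difference was -0.36 with a standard error of 0.06 (limma adjusted p = 0.0435). Each ± beside a log2 change below is likewise a standard error. The counts behind it were 5950 to 7980 fragments per library.

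GBP2 had 3.13, 3.22 and 3.02 FPKM in LIG replicates 1 to 3, against 4.00, 4.08 and 3.66 FPKM in TGF-β replicates 1 to 3. Its groups did not overlap either, and it did not pass over all genes (log2 change -0.25 ± 0.07, limma adjusted p = 0.262). GBP3 did not pass, with 20.8, 18.9 and 19.8 FPKM with LIG and 18.8, 20.6 and 19.5 FPKM with TGF-β alone. The groups overlap fully, and its 95% interval ran from -0.14 to 0.17 on the log2 scale. Over the 3 GBP genes the median log2 change was -0.25. GBP4 and GBP5, of the same family and outside the 39 genes, were named after their values were seen. GBP4 had 5.97, 5.09 and 3.97 FPKM with LIG and 7.08, 6.14 and 6.71 FPKM with TGF-β alone (log2 change -0.36 ± 0.12, limma adjusted p = 0.414). GBP5 had 1.14, 1.35 and 1.099 FPKM with LIG and 1.35, 1.41 and 1.37 FPKM with TGF-β alone, with overlapping groups (log2 change -0.11 ± 0.07, limma adjusted p = 0.762).

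**Figure D3:**
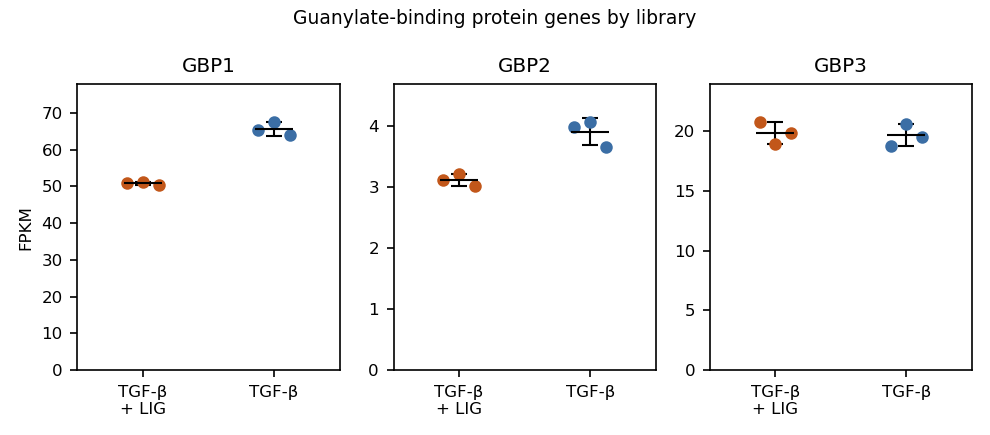
FPKM of GBP1, GBP2 and GBP3 in each library (points), with the mean and SD of each group of 3 (bars), LIG at the left. GBP1 and GBP2 are lower in every LIG library, and the GBP3 groups overlap.

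The size of the GBP1 change was similar whichever library was left out, from -0.38 to -0.34, but its adjusted p was not. Leaving out LIG replicate 1 gave 0.206, LIG replicate 2 gave 0.237 and LIG replicate 3 gave 0.0316. Leaving out TGF-β replicate 1 gave 0.253, TGF-β replicate 2 gave 0.147 and TGF-β replicate 3 gave 0.252. The call was also missed with robust variance estimation (adjusted p = 0.0549) and with no filter on low genes (adjusted p = 0.0704). A share of 5.2% of the 75-base stretches of the longest GBP1 transcript is identical in the pseudogene GBP1P1, and GBP2 shares 621 exon bases with GBP7, so reads between them may have been split in a way not stated.

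The IFIT genes, a cluster on chromosome 10, encode proteins that bind foreign RNA with unusual 5′ ends. IFIT3 had 34.0, 33.8 and 35.5 FPKM with LIG, against 37.8, 38.6 and 39.5 FPKM with TGF-β alone. IFIT2 had 23.2, 23.5 and 21.7 FPKM with LIG, against 24.7, 26.9 and 24.9 FPKM with TGF-β alone. In both genes every LIG library was below every TGF-β library. Neither difference passed. The log2 change was -0.16 ± 0.06 for IFIT3 (chromosome 10, 89327894 to 89340971, GRCh38; limma adjusted p = 0.460) and -0.16 ± 0.07 for IFIT2 (limma adjusted p = 0.574).
IFIT1 had 10.26, 9.9996 and 12.33 FPKM with LIG, against 11.97, 13.28 and 12.4 FPKM with TGF-β alone, with LIG replicate 3 inside the TGF-β range (log2 change -0.20 ± 0.09, limma adjusted p = 0.597). IFIT5, which binds a broader set of RNAs, had 4.68, 5.60 and 4.41 FPKM with LIG and 4.27, 5.24 and 4.71 FPKM with TGF-β alone, and the groups overlap.

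The IFITM genes encode small membrane proteins that block virus entry. IFITM3 had 168, 166 and 211 FPKM with LIG and 181, 202 and 179 FPKM with TGF-β alone. IFITM1 had 11.5, 10.2 and 13.5 FPKM with LIG and 10.7, 10.4 and 10.6 FPKM with TGF-β alone. LIG replicate 3 was the highest library of both genes. IFITM2 averaged 17.9 ± 1.095 FPKM with LIG and 17.7 ± 1.87 FPKM with TGF-β alone (SD, n = 3 each). Log2 changes were -0.05 for IFITM3, 0.13 for IFITM1 and 0.02 for IFITM2, and none passed. Of the 75-base stretches of IFITM1, 39.7% occur in transcripts of other genes, mainly IFITM2, so the split of reads between the IFITM genes is uncertain.

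ISG15 is a ubiquitin-like protein that is joined to other proteins with the help of the enzyme UBE2L6 and removed by USP18. ISG15 had 62.6, 60.3 and 90.6 FPKM with LIG, against 69.5, 81.7 and 81.5 FPKM with TGF-β alone. The first and second LIG libraries were below the TGF-β range and the third was above it. The log2 change was -0.14 ± 0.15 (limma adjusted p = 0.906), with a 95% interval from -0.49 to 0.21. UBE2L6 had 26.7, 29.2 and 33.1 FPKM with LIG and 28.99, 30.7 and 29.2 FPKM with TGF-β alone, again with LIG replicate 3 highest.

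The OAS enzymes make short adenylate chains that switch on an RNA-cutting enzyme; OASL is a relative without that activity. OAS2 had 2.31, 1.96 and 1.62 FPKM with LIG, against 2.36, 2.24 and 2.56 FPKM with TGF-β alone (log2 change -0.20 ± 0.09, limma adjusted p = 0.646). OAS3 had 8.96, 9.21 and 7.05 FPKM with LIG and 10.3, 7.62 and 9.23 FPKM with TGF-β alone. OAS3 was lowest in LIG replicate 3 and, within its group, in TGF-β replicate 2, the reverse of ISG15 and UBE2L6. OASL averaged 17.3 ± 1.81 FPKM with LIG and 18.7 ± 0.34 FPKM with TGF-β alone (SD, n = 3 each), with a log2 change of -0.11.

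Among the IFI genes, 4 of 4 tested had a log2 change below 0 and none passed. IFI6 was at -0.004, and its mean FPKM was higher with LIG (24.9) than with TGF-β alone (24.5). IFI6, a mitochondrial survival protein, had 21.5, 21.2 and 31.9 FPKM with LIG and 23.9, 25.8 and 23.8 FPKM with TGF-β alone. Its LIG libraries lay on both sides of the TGF-β range. IFI35, a partner of the STAT-binding protein NMI, had 3.90, 3.83 and 5.05 FPKM with LIG and 4.53, 4.79 and 4.17 FPKM with TGF-β alone. IFI27 averaged 3.20 ± 1.14 FPKM with LIG and 3.31 ± 0.62 FPKM without. IFI44 averaged 26.9 ± 0.36 FPKM with LIG and 28.2 ± 1.92 FPKM without (SD, n = 3 each).

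IFIH1 (MDA5) senses long double-stranded RNA in the cytosol. It had 4.23, 4.50 and 4.25 FPKM with LIG, against 5.09, 5.41 and 4.77 FPKM with TGF-β alone. TRIM22, an antiviral ubiquitin ligase, had 1.34, 1.48 and 1.51 FPKM with LIG, against 1.68, 2.104 and 2.13 FPKM with TGF-β alone. Both were lower in every LIG library, with log2 changes of -0.19 ± 0.07 for IFIH1 (limma adjusted p = 0.457) and -0.28 ± 0.08 for TRIM22 (limma adjusted p = 0.304), neither past the threshold.
SP100, a nuclear body protein that restricts DNA viruses, had 12.1, 12.3 and 13.9 FPKM with LIG, against 10.7, 11.7 and 11.3 FPKM with TGF-β alone, a log2 change of 0.17 ± 0.07 (limma adjusted p = 0.592). All LIG libraries of SP100 were above the TGF-β libraries, the one gene of the 35 for which this held. SAMHD1, which depletes the DNA building blocks that viruses use, averaged 20.3 ± 1.56 FPKM with LIG and 20.1 ± 0.09 FPKM without. ISG20, an exonuclease, averaged 2.96 ± 0.59 FPKM with LIG and 3.06 ± 0.20 FPKM without (SD, n = 3 each).

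PARP9 and the ubiquitin ligase DTX3L form a complex that boosts interferon signalling, and their genes overlap head to head by 217 exon bases on chromosome 3. PARP9 had 1.099, 1.07 and 0.892 FPKM with LIG and 1.0001, 0.901 and 1.101 FPKM with TGF-β alone. DTX3L had 3.86, 3.91 and 2.93 FPKM with LIG and 4.05, 3.48 and 4.00 FPKM with TGF-β alone. In both genes LIG replicate 3 and TGF-β replicate 2 were the lowest of their groups. PARP14, a related mono-ADP-ribosyltransferase, averaged 6.28 ± 1.12 FPKM with LIG and 6.61 ± 0.89 FPKM without (SD, n = 3 each). None of the 3 passed.

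None of the 4 transcription factor genes passed. IRF9, the DNA-binding partner of STAT2, had 8.34, 9.79 and 10.002 FPKM with LIG and 9.44, 9.82 and 10.7 FPKM with TGF-β alone. IRF7, which amplifies interferon production, had 1.82, 2.33 and 2.30 FPKM with LIG and 1.98, 2.23 and 1.88 FPKM with TGF-β alone. The groups overlap in both. STAT2 averaged 9.02 ± 0.29 FPKM with LIG and 9.25 ± 0.55 FPKM without. IRF1, an early responder to interferon-γ, averaged 11.3 ± 0.86 FPKM with LIG and 11.0 ± 0.94 FPKM without (SD, n = 3 each). Over the 4 factors the median log2 change was -0.003, and it ran from -0.028 to 0.037 when 1 library was left out at a time. The whole of the longest IRF9 coding transcript is also part of an annotated longer gene, AL136295.5, and counting may have divided reads between them.

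Class I genes had log2 changes between -0.12 and -0.04, all 4 below 0 and none past the threshold without library quality weights, with which HLA-B passed as lower. B2M had 528, 522 and 626 FPKM with LIG and 541, 630 and 559 FPKM with TGF-β alone. HLA-B, a peptide-presenting heavy chain, had 309.9, 298 and 381 FPKM with LIG and 319, 391 and 362 FPKM with TGF-β alone (log2 change -0.12 ± 0.12, limma adjusted p = 0.898). HLA-C, another heavy chain, had 120.1, 117 and 145 FPKM with LIG and 125, 138 and 129 FPKM with TGF-β alone. In each of the 3 genes LIG replicate 3 and TGF-β replicate 2 were the highest of their groups, and the groups overlap. TAP1, a subunit of the transporter that loads peptides, averaged 18.6 ± 1.399 FPKM with LIG and 19.3 ± 0.39 FPKM without (SD, n = 3 each), and was also highest in these libraries.

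Differences between libraries of one group followed gene length. All 8 tested genes of up to 1500 bases (IFITM1, IFITM2, IFITM3, ISG15, UBE2L6, IFI6, IFI27 and IFI35) were highest in LIG replicate 3 among LIG libraries, as were 86.2% of all tested genes of that length. Of the 5 genes over 6000 bases, 4 were lowest in LIG replicate 3 and 4 in TGF-β replicate 2 within their groups. Across the 35 genes, the deviation in LIG replicate 3 from the group mean had a Pearson correlation of -0.77 with log2 gene length (-0.67 across all tested genes), and that in TGF-β replicate 2 one of -0.50 (-0.56 across all). These are correlations across genes of single libraries, given as a description. The part of length in the comparison of the groups was measured by removing each library's trend with gene length, a fit chosen after seeing the data. GBP1 stayed the one gene of the 35 called (log2 change -0.39, limma adjusted p = 0.00214), where 2.62% of all genes were then called. The median log2 change was -0.09 over the 35 and 0.01 over all genes in this fit.

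**Figure D4:**
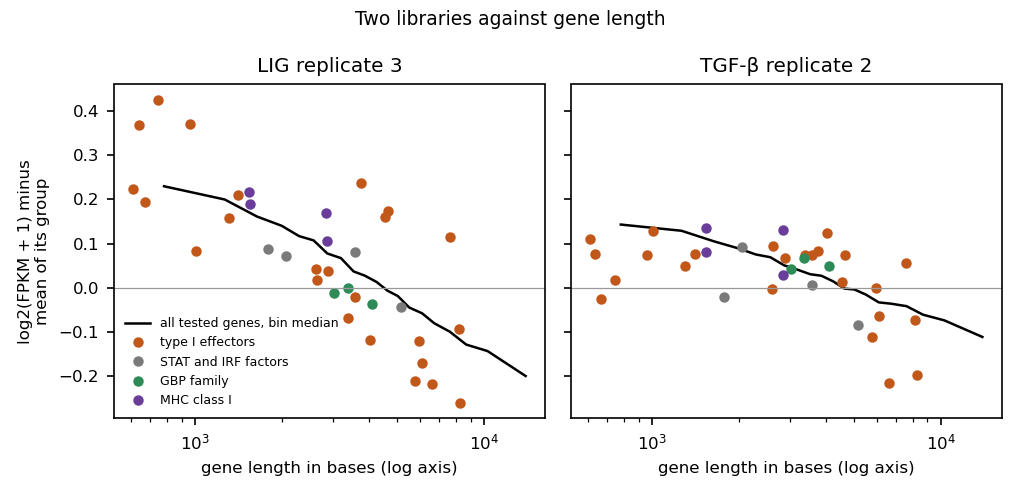
Deviation of log2(FPKM + 1) from the mean of its group in LIG replicate 3 (left) and TGF-β replicate 2 (right) against gene length in bases (log axis). Points are the 35 tested genes by subgroup and the black line is the median of all tested genes in 20 bins of length. Both fall with length. The GBP points lie near 0 in the LIG library. Among other genes of like length, IFIH1 and TRIM22 lie near 0 there too, and B2M and ISG20 lie higher.

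With both of these libraries left out, 2 remained in each group, and 5 of the 35 genes fell and none rose, while 4.65% of all genes were called and 2.69% as lower. The 5 were GBP1 (limma adjusted p = 0.00113), IFIT1 (0.0269), IFIT3 (0.0323), OASL (0.0467) and ISG15 (0.0485). The libraries left are the most alike of their groups, so their spread is small by the choice of libraries. GBP2 did not pass in this fit (adjusted p = 0.134).

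Other genes of the pathway showed no call in either direction, with 79 tested of 107 in the table from lists of 115 names. At an unadjusted p of 0.05, 12 of the 79 passed, against 8.41% of all genes. Of 8 receptor and kinase genes tested, none passed; all 8 had a log2 change above 0, as did 6508 of the 10695 genes, from 0.004 for JAK1 to 0.21 for IFNGR2. Their median was 0.07, against 0.03 over all genes. IFNGR2, a chain of the interferon-γ receptor, had 22.4, 20.3 and 23.8 FPKM with LIG and 18.8, 19.3 and 18.7 FPKM with TGF-β alone (limma adjusted p = 0.399). TYK2, the kinase bound to IFNAR1, averaged 11.3 ± 0.11 FPKM with LIG and 9.85 ± 0.71 FPKM without (SD, n = 3 each; limma adjusted p = 0.490). Both genes were higher in every LIG library and did not pass, though both passed with library quality weights. With these weights 1891 of the 10695 genes passed, and 26 of the 79.

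Of 7 tested STAT, IRF and inhibitor genes outside the 39, 6 had a change above 0 and none passed. SOCS3, a feedback inhibitor of JAK kinases, came closest to the threshold. It had 6.79, 6.48 and 6.51 FPKM with LIG, against 5.09, 4.99 and 4.82 FPKM with TGF-β alone, a log2 change of 0.35 ± 0.06 (limma adjusted p = 0.0616). It passed as higher without LIG replicate 3 and TGF-β replicate 2 (adjusted p = 0.0133), with the length trend removed (adjusted p = 0.0472) and with library quality weights. IRF3, which induces interferon genes, averaged 28.2 FPKM with LIG and 26.0 FPKM without (limma adjusted p = 0.825). Among 12 tested nucleic acid sensing genes the median was 0.02. DDX58, the RNA sensor RIG-I, averaged 11.9 ± 0.52 FPKM with LIG and 14.1 ± 0.37 FPKM without (SD, n = 3 each; limma adjusted p = 0.264), and IKBKE, a kinase of the sensing pathway, 3.23 FPKM with LIG and 2.68 FPKM without (limma adjusted p = 0.611). DDX58 passed with the length trend removed (limma adjusted p = 0.0472) and with library quality weights.

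Of 31 further interferon-induced genes tested, 23 had a change below 0, with a median log2 change of -0.09, and none passed. APOL1, a secreted trypanosome-killing factor, had 7.37, 7.19 and 7.93 FPKM with LIG, against 9.46, 10.9 and 10.7 FPKM with TGF-β alone (log2 change -0.42 ± 0.08, limma adjusted p = 0.0667). The APOL1 groups did not overlap, and it passed without LIG replicate 3 (adjusted p = 0.0415), without that library and TGF-β replicate 2 (adjusted p = 0.00948), with the length trend removed (adjusted p = 0.00452), with library quality weights and after rescaling to TPM. XAF1, a pro-apoptotic interferon target, had 1.66, 1.85 and 1.43 FPKM with LIG, against 2.33, 2.34 and 2.29 FPKM with TGF-β alone (log2 change -0.33 ± 0.08, limma adjusted p = 0.170). XAF1 passed with the length trend removed (limma adjusted p = 0.0337) and with library quality weights.

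Of 16 further class I loading and immunoproteasome genes, 11 were below 0, with a median log2 change of -0.06. HLA-F, a non-classical class I gene, had 2.47, 2.65 and 3.06 FPKM with LIG, against 3.71, 3.56 and 3.40 FPKM with TGF-β alone (log2 change -0.29 ± 0.08, limma adjusted p = 0.262). Its groups did not overlap, and it passed without LIG replicate 3 and TGF-β replicate 2 (limma adjusted p = 0.0305) and with library quality weights. PSMB8, a catalytic subunit of the immunoproteasome, averaged 20.1 ± 1.95 FPKM with LIG and 23.1 ± 1.45 FPKM without (SD, n = 3 each; limma adjusted p = 0.592). Of 11 MHC class II genes, 7 were under the filter of 1 FPKM, and the class II activator CIITA had 2 to 5 fragments per library. Of the 4 tested, HLA-DMA averaged 1.48 FPKM with LIG and 1.61 FPKM without (limma adjusted p = 0.896), and HLA-DPB1 5.22 FPKM with LIG and 4.82 FPKM without (limma adjusted p = 0.937).

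Interferon genes themselves were low. IFNB1, which encodes interferon-β, had 0.185 to 0.590 FPKM with LIG and 0.493 to 0.672 FPKM with TGF-β alone, on 6 to 22 fragments per library. IFNL1, a type III interferon gene, had 0.634 to 1.31 FPKM with LIG and 0.803 to 0.926 FPKM without. IFNE, a type I interferon gene known for its expression in the reproductive tract, was the single interferon gene past the filter. It had 8.88, 8.56 and 8.76 FPKM with LIG, against 6.98, 7.67 and 7.18 FPKM with TGF-β alone, higher in every LIG library without passing (log2 change 0.23 ± 0.06, limma adjusted p = 0.264). IFNE did pass without LIG replicate 3 and TGF-β replicate 2 (limma adjusted p = 0.0281) and with library quality weights.

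**Figure D5:**
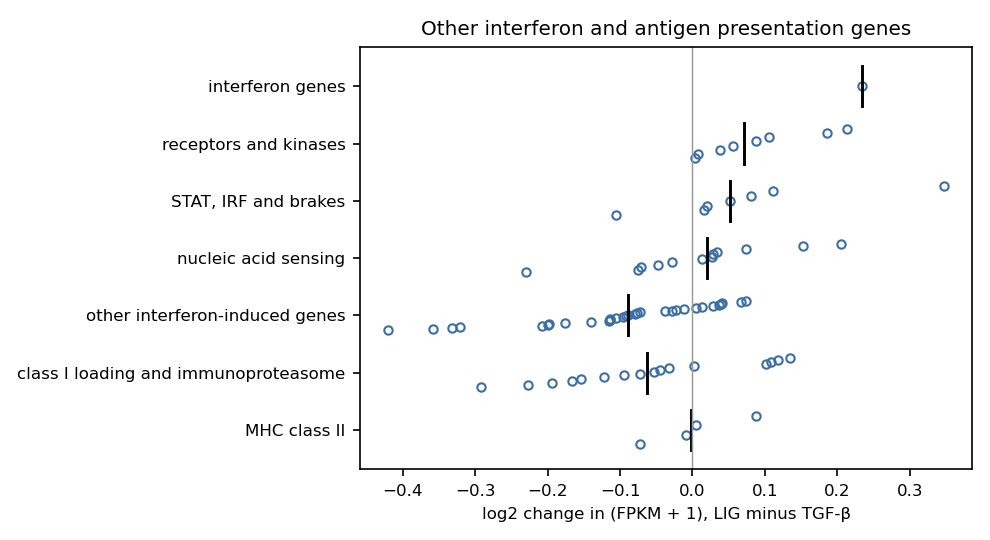
Log2 change in (FPKM + 1), LIG minus TGF-β, of the 79 tested pathway genes outside the 39, by list (open points), with the median of each list (black bar). None passed; receptor and kinase genes lie at or above 0, while interferon-induced genes extend to -0.42 (APOL1).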

How the data were processed

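PolyA RNA, 6 libraries in 2 groups of 3, was measured by RNA sequencing. What the authors deposited is a table of FPKM values with a column for each library, as its header shows. Tools listed in the submitters' processing notes, without roles, are HISAT2 2.1.0, fastp and DESeq2, with the build GRCh38.p13. The counting tool, annotation and use of strand are not given in the sources used here.

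Each gene's FPKM values were whole multiples of a step, from which fragments, library totals and gene lengths were recovered (100% of 64170 values of tested genes whole within 0.01 fragments). Only counting error is covered by fragment numbers. Genes with a mean of at least 1 FPKM were fitted with limma 3.58.1 in R 4.3.3 on log2(FPKM + 1), which understates changes of low genes. The model held group only, with a mean-variance trend, two-sided. The smallest two-sided p of an exact permutation of 3 against 3 is 0.1, and genes were tested through this model alone.

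Members and lists were chosen with earlier results of these data known. All 39 members are accounted for. Values per library are given for those that passed or whose groups did not overlap, the largest rise and fall of each role group and the most abundant of the type I effector, GBP and class I subgroups. In each pathway list the 2 smallest adjusted p are named. Coordinates and overlaps are from GENCODE 29, promoters from RefSeq. Python 3.11.15, numpy 2.4.6, pandas 2.3.3 and matplotlib 3.10.9 were used.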

Additional observations from a re-analysis of the deposited data

How the results depend on the processing

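Counts of calls depended on the settings. With no filter, library quality weights, the replicate block, both outlying libraries left out, or the length trend removed (chosen after seeing the data), the genes called were 14, 1891, 22, 497 and 280, against 74. Of these, 5, 1117, 9, 209 and 80 were higher, against 20. Under the first 4 of these the members called were 0, 10, 0 and 5, against 1, and 0 with robust estimation. Pathway genes called were 1 after rescaling to TPM, 26 with weights, 6 without both libraries and 5 with the length trend removed, against 0. Leaving out 1 library each gave 11 to 93 genes, 0 to 1 members and 0 to 1 pathway genes. GBP1 was below 0 in all 20 alternatives and passed in 12, with adjusted p from 0.000111 to 0.322, the highest with the replicate block.

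The GBP median log2 change was -0.31 with a pseudocount of 0.1, -0.17 for genes of at least 5 FPKM, -0.31 as TPM, -0.17 with weights, -0.21 without both libraries and -0.32 with limma voom on fragments, against -0.25. It was -0.29 to -0.23 leaving out 1 library each, and the type I effector median -0.12 to -0.042.

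Changes near 0 turned sign. GBP3 was at -0.0065 as TPM, -0.0076 median centred, -0.013 quantile normalized, -0.0042 with weights and -0.014 with the length trend removed. PARP9 was at -0.0075 median centred and -0.0057 with weights, and IFITM1 at -0.0022 with weights. Leaving out 1 library each, the log2 change ran from -0.046 to 0.10 for IFIT5, -0.16 to 0.010 for IFITM3, -0.082 to 0.069 for UBE2L6, -0.20 to 0.012 for OAS3, -0.19 to 0.094 for IFI6, -0.023 to 0.060 for PARP9, -0.15 to 0.015 for DTX3L, -0.019 to 0.047 for GBP3, -0.13 to 0.017 for B2M and -0.13 to 0.017 for HLA-C. None of these was past the threshold.

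Correlations of deviations between same-numbered libraries were 0.47, -0.57 and -0.34 for numbers 1 to 3. The deviations of LIG replicate 3 and TGF-β replicate 2 followed gene length, so these values cannot tell whether the numbers pair the samples. With the replicate block 22 genes were called, and GBP1 had an adjusted p of 0.322. DESeq2 and edgeR on recovered fragments were not run. The causes of these differences were not tested. With 3 libraries a group, the 95% intervals of the 35 genes had a median half-width of about 0.20 (log2). Some changes smaller than that had an interval below 0 and did not pass, such as -0.16 for IFIT3. These intervals are not adjusted over all genes, and larger changes also missed the threshold, such as -0.28 for TRIM22. A gene that did not pass may thus have changed by more than 0.20.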

Other observations

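Likeness was measured over genes outside the 39. The deviations from the group means of 5 genes outside the 39 were closest to the mean deviation of the 24 tested type I effector genes, with Pearson correlations of 0.999 to 1.000 over 6 libraries (SIRT7, STX10, AVEN, CRIPT and SARS1). The lengths of these genes were 3518, 1442, 2750, 6323 and 2005 bases, so they were not all short. Of 10660 genes compared, 1773 had a correlation above 0.9. A gene's deviations sum to 0 within each group, and the 5 genes were picked as the highest of all compared. Correlations this high thus say little of a likeness to the type I effector genes. That mean deviation was 0.064 (log2) in LIG replicate 3 and 0.022 in TGF-β replicate 2, the libraries whose short genes read high.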
